A study of Mus musculus with 2 samples.

Results

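Mrc1-high cells were a small group of the c-Myc-induced macrophages (iMac), mouse cells of wild type genotype profiled by single-cell RNA sequencing. They were chosen by their own counts: at least 2 counts and 200 CPM (counts per 1000000 of the cell's total) for Mrc1, and 0 counts for Ms4a7 and for Folr2, both markers of resident macrophages. There were 150 such cells among 5207 cells with at least 500 genes, at most 15% mitochondrial counts and at least 5000 total counts, a share of 2.88% (exact Clopper-Pearson interval 2.44 to 3.37%). They were 2.19% of the 6837 barcodes in the matrix. They were set against 2635 Mrc1-negative cells, which had 0 counts for Mrc1, Ms4a7 and Folr2 within the same limits, and against 1037 cells with a count for Ms4a7 or Folr2. The other 1385 cells had at least 1 Mrc1 count but did not reach the cutoff.

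The study detached macrophages induced by c-Myc with EDTA and captured them on the DNBelab C4 droplet system. The labels name a cDNA and an oligo library of the same cell type, but the barcode names carry no sample, so all cells were treated as 1 sample of 1 group. No dose, time or other condition is given, and there was no replicate, so no test could be made. The intervals of levels and ratios cover counting error alone, and those of shares of cells treat the cells as independent draws. The intervals of levels and ratios leave out the spread between cells, so they are too narrow where counts gather in few cells. Whether the counts are of unique molecules is not stated, and if they are of reads these intervals are too narrow for that reason as well. The matrix held 160606727 counts, with 1001 to 192369 per barcode. The Mrc1-high cells held 4176848 of them and the Mrc1-negative cells 60514402, so that 3 counts correspond to 0.718 CPM in the Mrc1-high cells and 0.0496 CPM in the Mrc1-negative cells.

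Mrc1 encodes the macrophage mannose receptor (CD206), a transmembrane lectin that binds mannose-ended sugars on microbes and on cleared glycoproteins and carries them by clathrin-coated pits to endosomes. It is used as a marker of resident and perivascular macrophages in tissues and, in cultured cells, of macrophages activated by interleukin-4. Immature myeloid cells and inflammatory monocytes carry little of it and are known instead for granule proteases and Ly6c2.

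Mrc1 lies on chromosome 2 from 14229392 to 14332057 on the plus strand (GRCm38, which is mm10; GENCODE M21) and spans 102666 bases. Start regions were read from the RefSeq promoter table of GRCm38.p6, which covers 250 bases before to 50 bases after each start. Of 15 genes sought, which were Mrc1, the 12 genes with the highest ratios below, C1qb and C1qc, 12 had an entry. The 4 windows shown are those of Mrc1 itself and of the genes for 2 complement C1q chains and platelet factor 4, whose levels stood high together in the Mrc1-high cells. Capitals mark GAGGAA on either strand (TTCCTC on the printed one), a core of the sites bound by the macrophage factor PU.1 and other ETS proteins.
Mrc1, chr2:14229164-14229463, plus strand: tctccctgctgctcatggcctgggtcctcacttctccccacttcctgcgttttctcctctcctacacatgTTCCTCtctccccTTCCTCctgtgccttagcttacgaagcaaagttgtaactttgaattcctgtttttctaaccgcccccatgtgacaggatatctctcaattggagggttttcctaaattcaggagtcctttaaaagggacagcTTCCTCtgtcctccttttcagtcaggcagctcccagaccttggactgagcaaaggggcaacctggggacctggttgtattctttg
C1qb, chr4:136886151-136886450, minus strand: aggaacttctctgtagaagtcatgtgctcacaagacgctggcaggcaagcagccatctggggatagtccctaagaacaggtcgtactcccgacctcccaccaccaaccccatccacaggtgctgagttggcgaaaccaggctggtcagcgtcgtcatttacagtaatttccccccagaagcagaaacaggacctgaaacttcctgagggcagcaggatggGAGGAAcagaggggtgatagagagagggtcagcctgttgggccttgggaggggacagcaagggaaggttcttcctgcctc
C1qc, chr4:136892865-136893164, minus strand: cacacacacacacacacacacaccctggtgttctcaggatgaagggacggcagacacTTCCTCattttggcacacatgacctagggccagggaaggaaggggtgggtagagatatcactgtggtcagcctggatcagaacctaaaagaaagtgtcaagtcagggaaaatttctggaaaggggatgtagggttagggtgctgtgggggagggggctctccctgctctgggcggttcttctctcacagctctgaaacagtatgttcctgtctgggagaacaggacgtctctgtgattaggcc
Pf4, chr5:90772185-90772484, plus strand: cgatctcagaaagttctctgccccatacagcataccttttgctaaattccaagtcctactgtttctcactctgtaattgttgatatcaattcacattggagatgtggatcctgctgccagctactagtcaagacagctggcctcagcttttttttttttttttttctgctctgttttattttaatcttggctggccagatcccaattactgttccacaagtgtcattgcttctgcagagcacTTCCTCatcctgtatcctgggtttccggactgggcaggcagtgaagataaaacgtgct
The Mrc1 window held 3 such matches, and the windows of C1qb, C1qc and Pf4 held 1 each. GAGGAA was found in 8 of the 12 genes, and 28.3% of 32851 promoters of the same 300 bases hold it. The windows of Gas6, Gm2245, Slc9a9 and G530011O06Rik, which are not shown, had no match. TGCTGA on either strand, a core of the sites bound by Maf proteins, was found in 7 of the 12 genes and in 19.5% of all promoters, but not in the Mrc1 window. For both motifs the genes are counted over 14 windows, while the shares are per promoter. Mrc1, C1qb and C1qc were added to the leading genes by choice. Enrichment was not tested. The matches of one motif can overlap those of the other at their ends, and a match describes letters in a window, not binding.

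The level that chose the cells is given first, as a description. Mrc1 per cell ranged from 201 CPM at the lowest through a median of 287 to 2162 CPM at the highest, and its counts per cell had a lowest value of 2, a median of 7 and a highest of 34. In 21 of the 150 cells the choice rested on 2 counts, and 52 cells had 10 or more. Summed over cells, Mrc1 stood at 319 CPM (302 to 336) in the Mrc1-high cells, at 124 CPM in the cells with Ms4a7 or Folr2, and at 61.0 CPM in the cells below the cutoff. The Mrc1-high cells held 14.1% of the 9459 Mrc1 counts within the limits, so most of this transcript lay outside them. Without the condition on Ms4a7 and Folr2, 372 cells reached the Mrc1 cutoff, and 222 of these had a count for one of the 2 other genes.

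The cutoff cut through a gradual scale. The 53 cells just inside it, from 200 to under 250 CPM of Mrc1, had 592 CPM of C1qa, 220 CPM of Maf and 8.25 CPM of Ly6c2. The 96 cells just outside it, from 150 to under 200 CPM, had 569 CPM of C1qa, 187 CPM of Maf and 6.17 CPM of Ly6c2. Pf4 was at 428 CPM inside and 328 CPM outside, and Ccl2 at 124 CPM inside and 70.4 CPM outside.

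Because detection grows with depth, each gene was compared within 4 bands of total counts, from 5000, 10000, 20000 and 40000 counts upwards. These bands held 34, 45, 30 and 41 Mrc1-high cells, against 646, 788, 806 and 395 Mrc1-negative cells. The Mrc1-negative rate of each band was applied to the totals of the Mrc1-high cells, which gives a depth-matched CPM. A gene was counted as higher or lower when it differed by at least 1.5 times on the scale of CPM plus 1, reached 10 CPM in the higher group and differed in the same direction in all 4 bands. Of 7281 genes compared, those at 10 CPM or more in either group, 1052 were higher in the Mrc1-high cells (14.4%) and 50 were lower (0.687%). Of the genes compared, 806 reached 10 CPM in the Mrc1-high cells alone, among them 345 of the higher ones, and 117 in the Mrc1-negative cells alone, among them 19 of the lower ones. A gene that enters in this way had to differ. Among the 6358 genes at 10 CPM in both groups 707 were higher (11.1%) and 31 lower (0.488%), with a median log2 ratio of 0.15, and over all 18153 genes with a count in either group the median was 0.063. The median log2 ratio of the genes compared was 0.20, so the ratios as a whole were shifted above 0. Relative to that median 554 genes were higher and 146 lower, and the share of higher genes among those past the fold was 79.1% in place of 95.5%.

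The make-up of the cells differed as well. In the Mrc1-high cells ribosomal protein genes took a median of 27.4, 26.9, 28.5 and 27.9% of counts in the 4 bands, against 34.2, 35.2, 34.7 and 32.9% in the Mrc1-negative cells. Mitochondrial counts were 0.568, 0.632, 1.09 and 1.198%, against 0.416, 0.448, 0.482 and 0.706%. Genes that span 100 kb or more, with Mrc1 left out, took 3.52, 3.63, 3.62 and 3.61% of counts, against 2.38, 2.35, 2.40 and 2.74%. The Mrc1-high cells were thus lower in the first share and higher in the other two in every band. The nuclear noncoding RNA Malat1 stood at 326 CPM in the Mrc1-high cells and 151 CPM in the Mrc1-negative cells. The median log2 ratio climbed with the span of the gene, as the plot by gene span shows, to 0.66 for genes of 200 kb or more against −0.09 for genes under 5 kb, and 50.6% and 4.36% of these were higher. When cells were also matched within 3 parts of the long-gene share in each band, an alternative chosen after seeing the data, 428 of 7371 genes were higher (5.81%) and 51 lower (0.692%), of which 419 and 41 were among those above. The rule on direction in all 4 bands was taken from the comparison without this matching, and only the ratio was computed anew. Part of this overlap, and of each call kept within the long-gene parts below, was thus fixed in advance. Malat1 had a log2 ratio of 1.10 and −0.016 after this matching. The median log2 ratio was 0.50 for mature macrophage genes, 1.25 for the perivascular and resident list, 0.38 for scavenger receptors, 0.37 for endocytosis, 0.23 for lysosome and 0.24 for transcription factors under the same matching, against 0.056 for all genes. The part of these shares in the results was not tested.

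**Figure D1:**
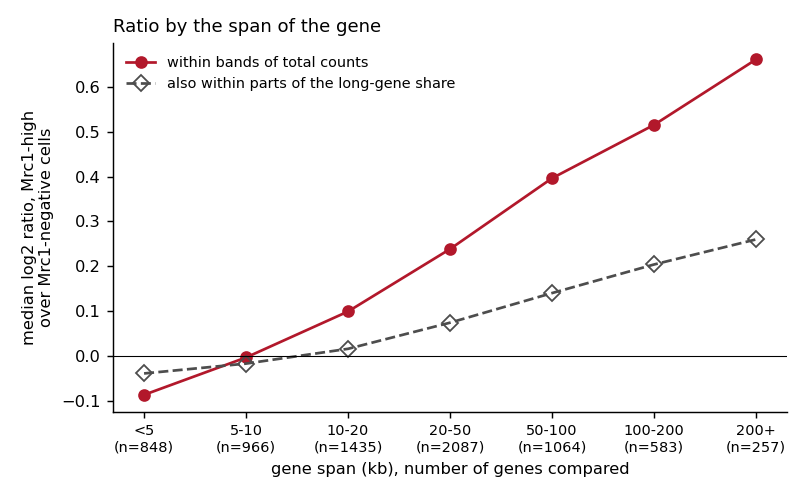
Median log2 ratio of Mrc1-high over Mrc1-negative cells (vertical axis) for genes grouped by span in kb (horizontal axis, with the number of genes compared). Filled points are matched on total counts and climb from −0.09 to 0.66; open diamonds are also matched on the share of counts in genes of 100 kb or more and reach 0.26.

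The 12 genes with the highest ratios were Ccl12, Fcrls, Ccl7, Gas6, Gm2245, Ccl2, F13a1, Slc9a9, Stab1, Maf, G530011O06Rik and Pf4, with log2 ratios of 2.23 to 3.02. Among them Ccl12, Fcrls, Ccl7, Gm2245, Slc9a9 and G530011O06Rik reached 10 CPM in the Mrc1-high cells alone, so they entered the comparison only by being higher there. The plot of the leading genes gives each with its interval. Of these, Ccl2, Ccl7 and Ccl12 encode ligands of the monocyte receptor Ccr2 and stand in 1 gene cluster. Slc9a9 encodes a sodium and proton exchanger of endosomes. Ccl2 was at 105, 136, 90.9 and 112 CPM in the 4 bands of Mrc1-high cells, against 28.1, 25.7, 16.0 and 16.1 CPM in the Mrc1-negative cells. It was higher in each band, with a log2 ratio of 2.53 (2.37 to 2.69). Ccl12 rested on 80 counts in the Mrc1-high cells, 61 of them in the deepest band, and was at 19.2 CPM against a depth-matched 1.49 CPM. Ccl7 was at 16.3 CPM against 1.32 CPM. G530011O06Rik has copies on X and Y, and Hist1h2ai, named below, belongs to a family of near-identical histone genes, so their counts are uncertain.

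**Figure D2:**
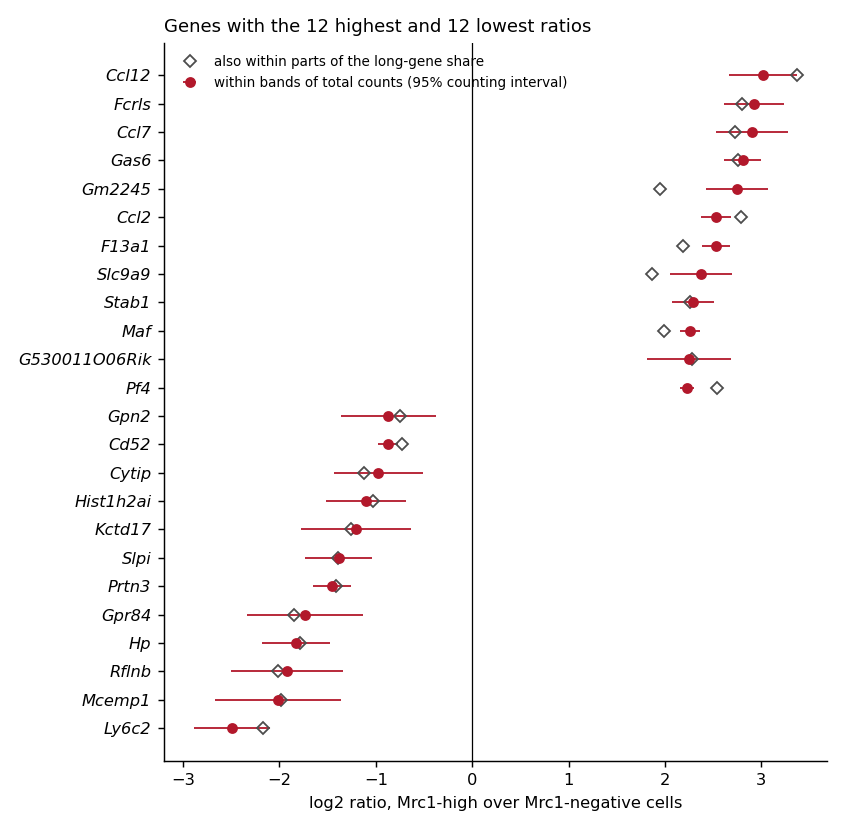
Log2 ratio of Mrc1-high over Mrc1-negative cells (horizontal axis) for the genes with the 12 highest and the 12 lowest ratios (rows). Filled points with bars are the ratios within bands of total counts with 95% counting intervals, and open diamonds are the ratios also matched on the long-gene share. Ccl12 leads at 3.02 and Ly6c2 is last at −2.49 and the genes drawn keep their direction under the second matching. Some genes at either end reached 10 CPM in their higher group alone and so had to differ.

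Maf, a transcription factor of mature and resident macrophages, was higher at each depth. It was at 226, 206, 234 and 228 CPM in the 4 bands of Mrc1-high cells, against 63.3, 62.0, 41.8 and 41.4 CPM in the Mrc1-negative cells. Per cell it had a lowest value of 0, a median of 204 and a highest of 1081 CPM in the Mrc1-high cells, and 132 of 150 cells had a count. In the Mrc1-negative cells the median was 0, with a count in 1111 of 2635 cells, and the ranges overlapped. The log2 ratio was 2.26 (2.15 to 2.37). Of 25 macrophage transcription factors compared, of 32 with a row, 8 were higher and 0 lower beside 14.4% and 0.687% of all genes, with a median of 0.40, against 0.20 for all genes. Over all 32 the median was 0.33, and 7 of the 8, Rxra apart, were also higher within the long-gene parts. Besides Maf the higher ones were Zeb2 (190 and 82.5 CPM in Mrc1-high and Mrc1-negative cells), Mitf (29.9 and 10.4 CPM), a regulator of lysosomal genes, Rxra, Id2, and the early response genes Jun, Egr1 and Fos. Spi1, which encodes PU.1, was at 237 and 213 CPM, within the fold. Klf4, a zinc finger factor of monocytes, was at 28.5 and 43.1 CPM and had a log2 ratio of −0.58, with a lower level in 3 of the 4 bands.

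**Figure D3:**
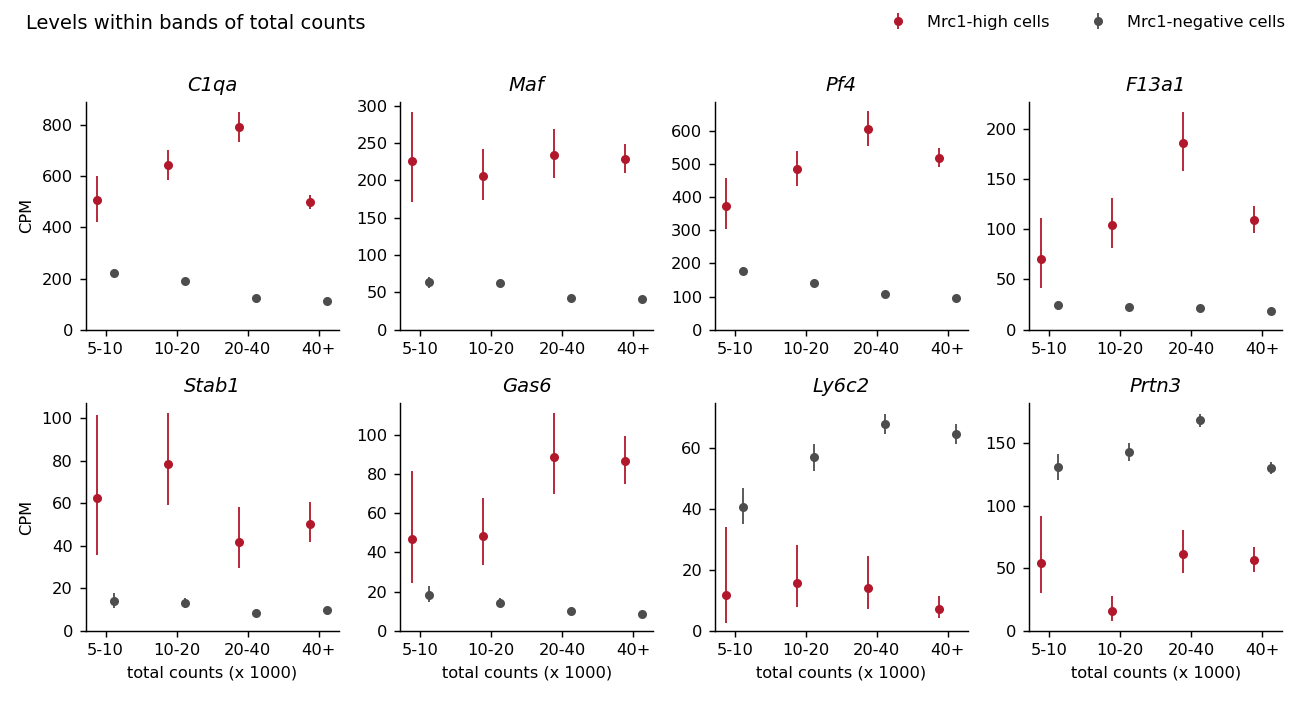
CPM (vertical axes, from 0) of 8 genes in the 4 bands of total counts per cell (horizontal axes, in units of 1000 counts), with red points for Mrc1-high cells and grey points for Mrc1-negative cells. Bars are exact 95% Poisson intervals of the summed counts. C1qa, Maf, Pf4, F13a1, Stab1 and Gas6 are higher and Ly6c2 and Prtn3 lower in the Mrc1-high cells in every band.

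Part of the mature macrophage list was higher. Of its 22 genes, all compared, 11 were higher and 0 lower, the 11 also within the long-gene parts, beside 14.4% and 0.687% of all genes, and the median log2 ratio was 0.61, or 0.41 above that of all genes. The 3 chains of complement C1q, the initiator of the classical pathway that also tags debris, were among its highest ratios. C1qa was at 506, 642, 791 and 499 CPM in the bands of Mrc1-high cells and at 222, 189, 122 and 114 CPM in those of the Mrc1-negative cells. C1qc was at 741 and 159 CPM and C1qb at 466 and 126 CPM over all bands. Per Mrc1-high cell C1qa ran from 0 through a median of 484 to 2748 CPM, and 11 of 150 cells had none. The receptor tyrosine kinase Mertk, which takes up dying cells, was at 26.6 and 5.86 CPM, and Adgre1, which encodes F4/80, at 63.0 and 26.2 CPM. The Fc receptor genes Fcgr1 (215 and 122 CPM) and Fcgr3 (319 and 184 CPM) and the integrin gene Itgam (66.3 and 29.6 CPM) were higher as well. Several general macrophage genes did not pass the fold. Csf1r, the receptor for colony stimulating factor 1, was at 181 and 131 CPM, Cx3cr1, the fractalkine receptor, at 133 and 90.2 CPM, Cd68 at 496 and 383 CPM, and Lyz2 at 2586 and 3357 CPM. Tyrobp, a signalling adaptor, was at 4918 and 5831 CPM and was detected in 150 of 150 Mrc1-high cells.

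Of the list for perivascular and tissue-resident macrophages that carry MRC1, 21 of 23 members had a row and 11 reached 10 CPM and were compared. Of the 11, 7 were higher (63.6%) and 0 lower, beside 14.4% and 0.687% of all genes, with a median log2 ratio of 1.57. The 11 reached 10 CPM in both groups. Over the 20 members with any count the median was 0.82, against 0.063 for all genes with a count. The 7 higher genes were higher within the long-gene parts too. These were Gas6 (78.0 and 10.3 CPM in Mrc1-high and Mrc1-negative cells), the bridging ligand of Mertk and Axl; Pf4 (522 and 111 CPM), a chemokine; Stab1 (54.1 and 10.3 CPM), the scavenger receptor stabilin-1; Selenop (114 and 27.1 CPM), a secreted selenoprotein; Dab2 (371 and 109 CPM), a clathrin adaptor; the ubiquitin ligase gene Wwp1 (122 and 40.4 CPM); and the haem oxygenase gene Hmox1 (82.1 and 40.7 CPM). Igf1 was at 165 and 132 CPM and did not pass the fold. The defining genes of the in vivo cells were at or near 0. Lyve1, Cd163 and Ccl8 had 0 counts in the Mrc1-high cells, which allows up to 0.718 CPM, and Timd4 had 5. Cbr2, a carbonyl reductase of resident macrophages, was at 8.86 and 0.812 CPM, under the limit of 10 CPM.

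F13a1 and Fcrls were among the leading genes too. F13a1, the A subunit of coagulation factor XIII, which monocytes and resident macrophages share, was at 70.1, 104, 185 and 109 CPM in the Mrc1-high bands, against 24.1, 22.2, 21.1 and 19.0 CPM. It was uneven: 70 of 150 Mrc1-high cells had a count, the median was 0 and the highest cell had 1378 CPM. Fcrls, an Fc receptor-like gene known from microglia, was at 26.1 and 2.58 CPM, with a count in 14.0% of Mrc1-high and 1.59% of Mrc1-negative cells thinned to 5000 counts each (28.7% and 4.52% before thinning).

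Scavenging, uptake and digestion genes were higher in part. Among 21 scavenger and efferocytosis genes compared, of 31 with a row, 11 were higher and 0 lower, beside 14.4% and 0.687% of all genes, with a median of 0.61. Mertk and Itgav reached 10 CPM in the Mrc1-high cells alone. Over the 30 members with a count the median was 0.51. Within the long-gene parts, where 5.81% of all genes were higher, 8 of the 11 remained so, without Colec12, Lrp1 and Elmo1. Besides Stab1, Gas6 and Mertk they included Cd36, a fatty acid and lipoprotein receptor (44.1 and 14.4 CPM), Msr1, the class A scavenger receptor (307 and 138 CPM), Lrp1 (171 and 104 CPM) and the integrin gene Itgav (14.6 and 6.60 CPM). Axl, which binds Gas6 as Mertk does, was at 7.18 and 11.6 CPM, a log2 ratio of −0.62, but was lower in 2 bands and higher in 2, so it was not counted. Among 31 endocytosis genes 11 were higher and 0 lower, with a median of 0.44, and 8 remained higher within the long-gene parts, without Cltc, Eps15 and Picalm. The transferrin receptor gene Tfrc was at 70.9 and 22.8 CPM, the sorting nexin gene Snx2 at 316 and 123 CPM, the early endosome tether gene Eea1 at 42.4 and 17.5 CPM, and Cltc, the clathrin heavy chain, at 174 and 103 CPM. Among 29 lysosome genes 8 were higher and 1 was lower, with a median of 0.34, or 0.14 above that of all genes. Manba and Lipa lost their calls within the long-gene parts. Ctsb, a cysteine protease, was at 1152 and 525 CPM, and Ctsd, an aspartic protease, at 838 and 511 CPM. These shares of higher genes were 35.5% for endocytosis and 27.6% for lysosome, against 14.4% of all genes. Of 17 genes of lipid-associated macrophages 7 were higher (41.2%) and 0 lower, and 6 of the 16 at 10 CPM in both groups. Spp1, osteopontin, ran from 0 through a median of 429 to 8008 CPM per Mrc1-high cell, and from 0 through 86.4 to 17915 CPM per Mrc1-negative cell.

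**Figure D4:**
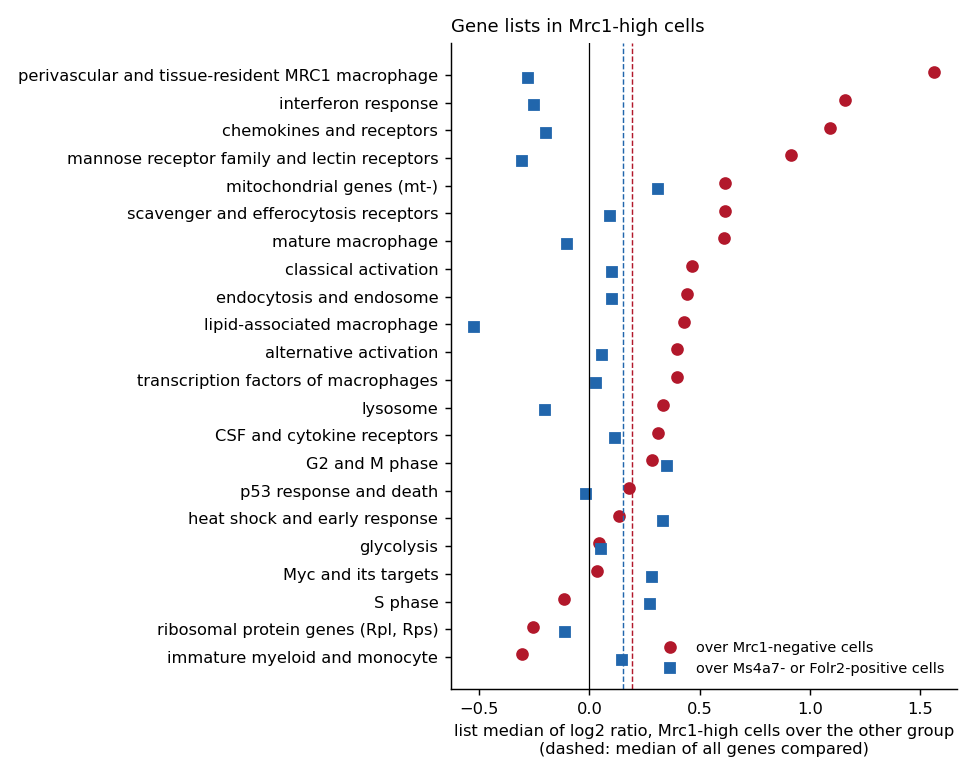
Median log2 ratio of the genes of each list (horizontal axis) in Mrc1-high cells over Mrc1-negative cells (red circles) and over Ms4a7- or Folr2-positive cells (blue squares); dashed lines are the medians of all genes compared, 0.20 and 0.15. The perivascular and resident list is at 1.57 in the first comparison and at −0.28 in the second.

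Mrc1 itself was left out of its own list of lectin receptors. Of 11 others compared, of 17 with a row, 5 were higher (45.5%) and 0 lower, beside 14.4% and 0.687% of all genes, with a median of 0.92. Clec4a1, Clec4a3 and Clec12a reached 10 CPM in the Mrc1-high cells alone. Among the 8 at 10 CPM in both groups 3 were higher, with a median of 0.38, and over the 16 with a count the median was 0.56. The higher ones were Clec10a, the galactose-type lectin (47.2 and 22.5 CPM in Mrc1-high and Mrc1-negative cells), Clec4a2 (37.1 and 11.9 CPM), Clec4a3 (11.97 and 4.36 CPM), Clec12a (20.4 and 9.05 CPM) and Lgals9 (66.6 and 31.0 CPM). Of the other members of the mannose receptor family, Ly75 and Pla2r1 had 0 counts in the Mrc1-high cells and Mrc2 had no row.

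Of the genes of alternative activation, the response to interleukin-4, 7 of 21 with a row were compared. Of these 2 were higher (28.6%) and 0 lower, beside 14.4% and 0.687% of all genes, with a median of 0.40. The higher ones were Clec10a, and Il4ra, the interleukin-4 receptor chain (14.4 and 6.77 CPM). Il4ra reached 10 CPM in the Mrc1-high cells alone, as did Pparg. Of the 5 genes at 10 CPM in both groups 1 was higher, and over the 20 with a count the median was 0.084. Arg1 had 1 count in the Mrc1-high cells, Ccl22 and Tgm2 had 0, and the commonly used markers Chil3 and Retnla had no row. Of 4 classical activation genes 2 were higher (50%), beside 14.4% of all genes. Among them was Cd38 (12.9 and 4.33 CPM), which reached 10 CPM in the Mrc1-high cells alone, while Nos2, Il1b and Il6 had 0 counts. Of 15 interferon-response genes compared, of 23 with a row, 8 were higher (53.3%) and 0 lower, beside 14.4% and 0.687% of all genes, with a median of 1.16. Among the 12 at 10 CPM in both groups 6 were higher, with a median of 1.07, and over the 23 with a count the median was 0.83. Rtp4 was at 43.3 and 11.5 CPM, Slfn5 at 40.2 and 10.9 CPM and Oasl2 at 19.2 and 5.96 CPM. The interferon-induced genes Ifit3 (1.44 and 1.58 CPM) and Rsad2 (5.27 and 3.37 CPM) stayed under 10 CPM and were not compared. Rsad2 was lower in 3 of the 4 bands. Isg15, a ubiquitin-like product of the same response, was at 81.6 and 32.8 CPM, but was higher in 3 of the 4 bands and so not counted. Of 12 chemokine genes and receptors compared, of 22 with a row, 7 were higher (58.3%), beside 14.4% of all genes, or 5 of the 9 at 10 CPM in both groups. Among them were Ccl9 (482 and 302 CPM), Ccl4 (45.0 and 19.3 CPM) and Ccl6 (41.9 and 18.0 CPM). Of 17 genes of receptors for colony stimulating factors and cytokines 1 was higher, Il4ra (5.88%, beside 14.4% of all genes), and 0 were lower, with a median of 0.31. Of the 15 at 10 CPM in both groups 0 were higher. Ccr2, the receptor for Ccl2, was at 15.3 and 24.98 CPM and did not pass the rule; its log2 ratio of −0.67 was 0.077 without the cells of 40000 counts and more.

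Genes of granules and of monocytes were among the lower ones. The 12 with the lowest ratios were Ly6c2, Mcemp1, Rflnb, Hp, Gpr84, Prtn3, Slpi, Kctd17, Hist1h2ai, Cytip, Cd52 and Gpn2, with log2 ratios of −2.49 to −0.87. Among them Mcemp1, Rflnb, Gpr84, Kctd17, Hist1h2ai, Cytip and Gpn2 reached 10 CPM in the Mrc1-negative cells alone, so they entered the comparison only by being lower in the Mrc1-high cells. Ly6c2, a surface antigen of inflammatory monocytes, was at 11.7, 15.7, 14.0 and 7.20 CPM in the bands of Mrc1-high cells, against 40.7, 56.8, 67.8 and 64.5 CPM. Only 14 of the 150 cells had a count for it, and 3 cells held 26 of its 43 counts. Prtn3, the granule protease proteinase 3, was at 54.5, 15.7, 61.7 and 56.3 CPM, against 131, 143, 168 and 130 CPM. It was seen in 48 of 150 Mrc1-high cells. Hp, haptoglobin, was at 13.6 and 51.1 CPM, and Slpi, a protease inhibitor of neutrophils and macrophages, at 14.4 and 39.2 CPM. Gpr84, a receptor for medium-chain fatty acids, was at 3.11 and 12.7 CPM, and Cd52, a short surface glycoprotein of leukocytes, at 187 and 344 CPM.

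The immature myeloid and monocyte list was split. Of 9 genes compared, of 20 with a row, 3 were lower (Ly6c2, Prtn3 and Hp) and 2 were higher (F13a1, and Igfbp4 at 268 and 137 CPM). Over all genes compared, 0.687% were lower and 14.4% higher. The median of the list was −0.31, against 0.195 for all genes. With cells also matched on the long-gene share it was −0.67, against 0.056. Without the cells of 40000 counts and more it was 0.041, against 0.255. Its sign thus rested on the deepest band, but it was below the median of all genes in each of these settings. Elane had 1 count in the Mrc1-high cells, Ctsg was at 6.46 and 8.15 CPM, and Irf8, which steers progenitors towards monocytes, at 99.1 and 121 CPM.

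The Mrc1-high cells still carried cell cycle transcripts. Thinned to 5000 counts per cell, 33.3% of them had a count for Mki67, the proliferation antigen (exact interval 25.9 to 41.5%), against 28.6% of Mrc1-negative cells (26.9 to 30.4%). Top2a, a topoisomerase of dividing cells, was seen in 36.0% and 27.8%. Of 27 genes of G2 and M phase 3 were higher, Cenpf, Kif20b and Hmmr, a share of 11.1% beside 14.4% of all genes, and the median was 0.28. With cells also matched on the long-gene share 0 of these 3 were higher and the median was −0.035. Of 26 S phase genes 0 were higher and 1 was lower, Cdc45 (23.9 and 39.6 CPM), with a median of −0.12. Myc, whose induction gave the cells their name, was at 45.2 CPM in Mrc1-high cells and 43.1 CPM in Mrc1-negative cells, a log2 ratio of 0.07 (−0.14 to 0.28). Its counts cannot be split between the endogenous gene and any introduced copy. Of 28 Myc genes and targets 0 passed the fold either way, with a median of 0.04, or 0.16 below that of all genes. Of 85 ribosomal protein genes 0 passed it, with a median of −0.26. Of 11 mitochondrial genes 8 were higher (72.7%, beside 14.4% of all genes), 5 of them also within the long-gene parts, with a median of 0.62. Among p53 and death genes 2 of 17 were higher (11.8%), Sesn1 and Bcl2l1, and among glycolysis genes 1 of 16 (6.25%), Hk3. Among heat shock and early response genes 5 of 14 were higher (35.7%), beside the 14.4% of all genes. The medians of these lists, in the same order, were 0.02, 0.15 and 0.06 below that of all genes.

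Shares of cells with a count differed in the same directions for the genes named here, once each cell was thinned to 5000 counts. A count for Maf was found in 56.0% of Mrc1-high cells (47.7 to 64.1%) and in 18.5% of Mrc1-negative cells (17.1 to 20.1%). C1qa was found in 84.0% and 36.1%, Dab2 in 72.7% and 37.3%, Pf4 in 73.3% and 38.7%, F13a1 in 29.3% and 8.46%, and Stab1 in 26.7% and 4.402%. Ly6c2 was found in 4.67% and 13.1%, and Prtn3 in 16.0% and 36.9%. Before thinning these 2 were found in 9.33% and 24.0%, and in 32.0% and 59.4%. No cell type that should lack macrophage genes was present to measure free RNA, so shares of detection carry an unknown background.

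Levels were also taken by the grade of Mrc1, for cells with 0 counts of Ms4a7 and Folr2. Relative to Mrc1-negative cells of the same depth, C1qa was 2.43 times as high in the 1385 cells with Mrc1 below the cutoff, 4.11 times from 200 to under 400 CPM (113 cells) and 5.22 times from 400 to under 800 CPM (34 cells). Maf was 2.49, 4.57 and 5.71 times as high in the same classes, F13a1 2.004, 5.48 and 6.93 times, and Spp1 1.78, 2.73 and 5.74 times. Ly6c2 was 0.410, 0.189 and 0.0763 times its Mrc1-negative level, and Prtn3 0.595, 0.409 and 0.192 times. Csf1r was at 1.11, 1.35 and 1.54 times, and Clec10a was at 1.15, 2.17 and 1.78 times, with no steady order. The 3 cells at 800 CPM or more of Mrc1 did not extend each of these series. C1qa was 2.17 times as high there, at 424 CPM (251 to 670) against 737 CPM (680 to 797) from 400 to under 800 CPM, and C1qc was at 283 CPM (146 to 494) against 1048 CPM (980 to 1119). The values of the 3 cells rest on 18 counts of C1qa and 12 of C1qc. The intervals leave out the spread between cells, and C1qa ran from 0 to 2748 CPM over single Mrc1-high cells, so a drop in this class is not established. Maf, at 8.70 times, and F13a1, at 25.03 times, were above the class below, and Ly6c2 had 0 counts.

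**Figure D5:**
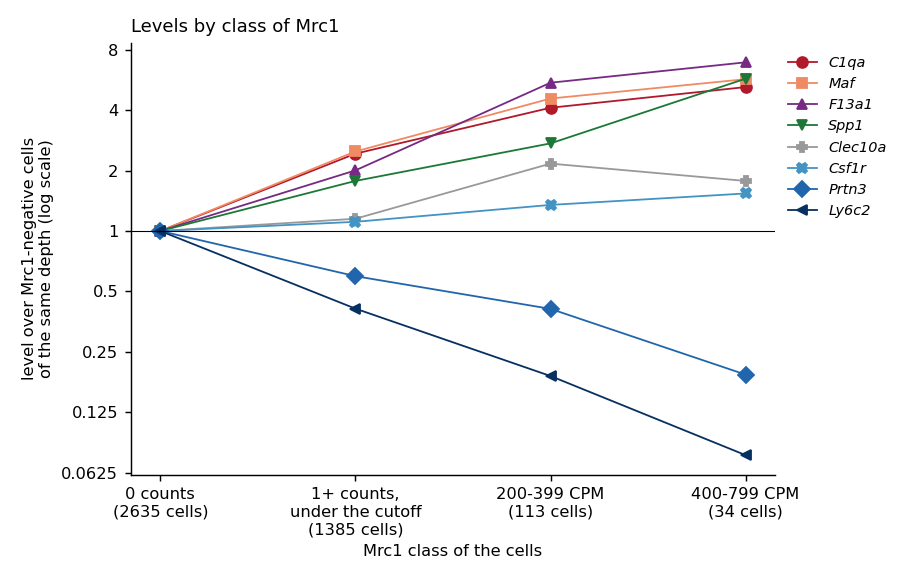
Level relative to Mrc1-negative cells of the same depth (vertical axis, log scale) of 8 genes in 4 classes of Mrc1 (horizontal axis, with the number of cells); the 3 cells at 800 CPM or more, where C1qa is at 2.17 and Ly6c2 has 0 counts, are not drawn. C1qa reaches 5.22 and F13a1 6.93 in the highest class drawn, where Ly6c2 is at 0.0763.

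A second comparison was with the cells that had a count for Ms4a7 or Folr2, and these 2 genes, which the rule used, are left out of it. Of 7301 genes compared, 413 were higher in the Mrc1-high cells (5.66%) and 71 were lower (0.972%), and the median of all was 0.15. Among the 6566 genes at 10 CPM in both groups 277 were higher (4.22%) and 44 lower (0.670%). Relative to that median 164 were higher and 138 lower, so that higher genes made up 54.3% in place of 85.3% of those past the fold. With cells also matched on the long-gene share 103 were higher and 126 lower, the opposite balance. The C1q genes did not pass the fold, with C1qa at 583 CPM in Mrc1-high cells and 646 CPM in Ms4a7- or Folr2-positive cells, C1qb at 466 and 488 CPM and C1qc at 741 and 749 CPM. Gas6 (78.0 and 79.9 CPM), Stab1 (54.1 and 50.6 CPM), Pf4 (522 and 496 CPM), Ly6c2 (10.3 and 9.20 CPM) and Prtn3 (50.5 and 41.9 CPM) did not pass it either. Maf was at 226 and 154 CPM and F13a1 at 122 and 62.3 CPM, and neither met all conditions.

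The genes that led the Mrc1-high cells there, Mrc1 apart, were Arl15 (24.9 and 8.16 CPM in Mrc1-high and Ms4a7- or Folr2-positive cells), Pde4d (58.7 and 20.6 CPM), a cAMP phosphodiesterase, Gm2245 (26.3 and 9.38 CPM), Kcnq1ot1 (20.4 and 7.92 CPM), a nuclear noncoding RNA, and Zcchc7 (37.1 and 15.6 CPM). Their log2 ratios of 1.2 to 1.499 became 0.57 to 1.01 with cells also matched on the long-gene share. Among them Arl15, Gm2245 and Kcnq1ot1 reached 10 CPM in the Mrc1-high cells alone, as 598 genes did, 136 of them higher. Such genes had to differ. The lowest were Ifit3 (1.44 and 17.7 CPM) and Rsad2 (5.27 and 25.5 CPM), both interferon-induced antiviral genes, Fabp4 (7.42 and 31.8 CPM), a fatty acid binding protein, Tnfsf12 (5.03 and 19.6 CPM), the cytokine TWEAK, and Apoc1 (2.87 and 11.4 CPM), an apolipoprotein. These 5 reached 10 CPM in the Ms4a7- or Folr2-positive cells alone, as 137 genes did, 27 of them lower. Of 19 interferon-response genes compared there, 3 were lower and 0 higher, beside 0.972% and 5.66% of all genes, with a median of −0.25. Of the lipid-associated list 9 of 19 genes compared were lower and 0 higher, beside 0.972% and 5.66% of all genes, with a median of −0.52. They included Spp1 (825 and 1299 CPM), Apoe (1933 and 3110 CPM), Lgals3 (1901 and 3206 CPM), Plin2 (232 and 405 CPM) and Cd36 (44.1 and 72.1 CPM). Cd36, Spp1 and Apoe were thus above the Mrc1-negative cells and below the Ms4a7- or Folr2-positive ones. Of 13 chemokine genes and receptors compared, 4 were lower and 0 higher, beside 0.972% and 5.66% of all genes, with a median of −0.20. The lower ones were Ccl4, Ccl6, Cxcl14 and Cxcl16. Igf1 was lower as well (165 and 298 CPM). Of the genes of G2 and M phase 4 of 27 were higher, beside 5.66% of all genes, with a median of 0.35. The higher ones were Mki67 (147 and 97.2 CPM), Cenpf, Kif20b and Kif23.

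Markers of other cells were low except for a few genes. Of 17 fibroblast genes 8 had a row, with 4 of these at 0 in the Mrc1-high cells, Pdgfra among them, and their summed level was 5.51 CPM in Mrc1-high and 6.29 CPM in Mrc1-negative cells. Endothelial genes summed to 186 and 213 CPM, mostly from Egfl7 (90.7 and 114 CPM) and Ramp2 (72.3 and 77.5 CPM), whereas Cdh5 had 1 count, Pecam1 3 and Stab2 1. T and NK cell genes summed to 8.38 and 4.22 CPM with Cd3e at 0, mast cell genes to 0.239 and 0.0851 CPM with Cpa3 at 0, and erythroid and megakaryocyte genes to 0.718 and 0.620 CPM. Of 6 B cell genes with a row only Ighm was compared, and it was lower (50.5 and 87.5 CPM), while Ms4a1 and Pax5 were at 0. Osteoclast genes summed to 22.3 and 18.5 CPM. Of the MHC class II and dendritic cell list 3 genes were compared and 0 passed the fold. Cd74, the invariant chain, was at 40.9 and 58.9 CPM, and H2-Aa, H2-Ab1, Itgax, Xcr1 and Clec9a had 0 counts in the Mrc1-high cells.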

How the data were processed

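The deposited matrix held raw counts, as whole numbers per gene and barcode, and its file header credits PISA 0.12. The submitters' processing notes also list Cell Ranger and the mm10 build without saying what each was used for. How reads were aligned, assigned to genes and strands, and grouped into called cells is not stated. From the counts, CPM, ratios of observed to expected counts within 4 bands of total counts and exact Poisson and Clopper-Pearson intervals (95%) were computed with Python 3.11.15, numpy 2.4.6, scipy 1.17.1 and pandas 2.3.3. Ratios carry a pseudocount of 1 CPM, so those of low genes are understated. Shares were taken after thinning each cell to 5000 counts (seed 1) unless stated otherwise, and no cell kept was shallower. The script was tested on simulated data. No doublet caller was run, and leaving out the cells of 40000 counts and more was tried in its place. Of all barcodes, 1630 lay outside the limits: 1617 had under 5000 counts, 47 had under 500 genes and 50 had over 15% mitochondrial counts, with some in several classes. No barcode name was repeated.

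Of the 20034 symbols in the matrix, 19659 are in GENCODE M21, which gave positions and spans. A gene without a row was not counted as 0. The text names the 12 highest and 12 lowest ratios past the fold, the members of each list with the largest ratios and its highest member, the 5 leading genes each way against Ms4a7- or Folr2-positive cells, and a fixed set with Mrc1, Clec10a, Cd74, Cx3cr1, Myc, Csf1r, Ly6c2 and Prtn3. Other genes were named after their values were seen. The cells, the gene lists and the comparisons were chosen with earlier results of these data known. The alternatives covered the bands, the pseudocount, the filter, the denominator, centring, the Mrc1 cutoff, the condition on Ms4a7 and Folr2, depth, thinning, cell cycle share and the long-gene share. The long-gene share and the filter of 10 CPM in both groups were chosen after seeing the data.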

Additional observations from a re-analysis of the deposited data

How the results depend on the processing

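The count of higher genes, 1052 in all, was 439 with 8 bands, 471 with a pseudocount of 10 CPM, 554 centred on the median of all genes, 427 with an Mrc1 cutoff of 100 CPM and 428 within parts of the long-gene share. It was 891 without ribosomal and mitochondrial genes in the denominator, 803 at low cell cycle share and 707 among genes at 10 CPM in both groups. Without cells of 40000 counts and more it rose to 1564, of which 963 were among the 1052. It was also higher as a mean over cells (1422), with no filter (1389), thinned (1124), with no condition on Ms4a7 and Folr2 (1120) and at 400 CPM (1098). The count of lower genes, 50, was 24 with 8 bands, 13 with that pseudocount, 227 with no filter, 120 without ribosomal and mitochondrial genes in the denominator, 146 centred, 260 at 400 CPM, 23 at 100 CPM, 155 with no condition on Ms4a7 and Folr2, 102 without cells of 40000 counts and more, 146 with thinned cells, 31 among genes at 10 CPM in both groups and 160 in cells of low cell cycle share. The mature macrophage median, 0.61, was 0.73 as a mean over cells, 0.51 with the other denominator, 0.41 centred, 1.05 at 400 CPM, 1.02 with no condition on Ms4a7 and Folr2, 0.84 without the deepest band, 0.74 thinned and 0.50 within the long-gene parts. The immature myeloid median, −0.31, was −0.039 as a mean over cells, −0.55 at 100 CPM, −0.54 with no condition, 0.041 without the deepest band, −0.070 thinned, −0.59 at low cell cycle share and −0.67 within the long-gene parts. The median of G2 and M phase, 0.28, was 0.087 centred, 0.016 with no condition, −0.60 at low cell cycle share and −0.035 within the long-gene parts. Cells of low cell cycle share were those under the median share of counts in the S phase and G2 and M phase lists. The −0.60 was thus read from genes that chose the cells and is no independent check. Against Ms4a7- or Folr2-positive cells the 413 higher genes were 160 with 8 bands, 78 with the larger pseudocount, 103 within the long-gene parts and 164 centred, and the 71 lower genes were 45, 41, 126 and 138, or 237 with no filter and 44 among genes at 10 CPM in both groups. The use of 8 bands asks for agreement in more bands, which lowers counts by construction; the cause of the other shifts was not tested.

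Among 143 named genes, 95 were past 1.5 times, 89 of these kept their sign under all 13 alternatives that give a value per gene and 63 stayed past it. The alternative with no filter on CPM leaves the ratio of each gene as it was, so it could not change either. A pseudocount of 10 CPM cannot turn the sign of a ratio. Centring moves each log2 ratio by 0.195 and cannot turn the sign of a gene past 1.5 times. The sign was thus fixed in advance under these settings. The genes that reversed were Bcl2a1b (0.056) and Apoc1 (0.44) with no condition on Ms4a7 and Folr2, Ccr2 (0.077) without the deepest band, and Tgfbr1 (−0.24), Kif20b (−1.06) and Cenpe (−1.91) at low cell cycle share. Kif20b and Cenpe belong to the G2 and M phase list, which took part in the choice of those cells. The cutoff of 400 CPM left 33 cells and that of 100 CPM gave 401. No paired analysis was possible because the cells form 1 sample with no replicate, and no result comes from a test. For the same reason no replicate could be left out. Depth limits the lowest genes: 3 counts in the Mrc1-high cells are 0.718 CPM.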
